A study of Mus musculus with 6 samples.

Results

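The mesothelial lining of epididymal white adipose tissue (eWAT) was followed here through 10 marker genes: Msln, Muc16, Upk3b, Upk1b, Lrrn4, Krt19, Krt8, Krt18, Wt1 and Bnc1. The genes were chosen by name, and each was represented by its brightest probe set that carried that symbol alone. They are 10 of 19938 genes measured, and 6 of the 10 were bright enough to be tested. The rAAV-Lmo3 group held 3 arrays and the rAAV-YFP group held 3 arrays, each hybridized with RNA pooled from 2 mice. All were male C57BL6/J animals, which ate a high-fat diet for 12 weeks starting at 6 weeks of age and so were 18 weeks old at the end. After an initial period on the diet, both groups received a recombinant adeno-associated virus of serotype Rec2 into eWAT, which carried either Lmo3, a LIM-domain cofactor of transcription, or yellow fluorescent protein (YFP). Both transgenes were driven by the CMV enhancer and chicken beta-actin promoter. The groups are called rAAV-Lmo3 and rAAV-YFP as the samples are labelled. The Lmo3 probe set read 24, 26 and 24 on the arrays labelled rAAV-Lmo3, against 25, 24 and 24 on those labelled rAAV-YFP, and so showed no rise with the delivered gene. It lay far below the limit of 114 for testing, whether it reads the delivered sequence was not tested, and every direction given here rests on the labels alone.

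The mesothelium is the flat cell layer that covers visceral fat and the walls and organs of the body cavities, and it is not a feature of subcutaneous fat. Its cells come from mesoderm yet carry keratins like an epithelium, make a lubricating glycocalyx, and can change into fibroblast-like cells after injury. On visceral fat they lie beside milky spots, small clusters of lymphoid cells and macrophages. Whole eWAT was measured, so fewer mesothelial cells and less RNA per mesothelial cell cannot be told apart.

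Every one of the 10 genes had a lower mean in eWAT labelled rAAV-Lmo3 than in eWAT labelled rAAV-YFP, none of them passed the test, and 1 control array carried much of the difference. The log2 differences (rAAV-Lmo3 minus rAAV-YFP) lay between -0.57 for Upk1b and -0.06 for Krt18, with a median of -0.22, against a median of 0.00 over all genes tested. In limma with Benjamini-Hochberg adjustment 0 of the 6 tested members were called, as were 0 of 11963 genes (0%). The adjusted p of the 6 members lay between 0.970 and 0.971. At an unadjusted p under 0.05, 0 of 6 members were higher, where 2.27% of all genes tested were, and 0 of 6 were lower, where 2.4% were. All 10 pairs of groups overlapped. Among all genes tested, 4.53% had every rAAV-Lmo3 array above every rAAV-YFP array and 5.95% had every rAAV-Lmo3 array below.

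Mesothelin, the surface protein that gives the mesothelium its best-known marker, is encoded by Msln (chr17:25748613-25754378 in GRCm38.p6). Its intensity was 128, 125 and 126 on the rAAV-Lmo3 arrays, against 126, 144 and 241 on the rAAV-YFP arrays. A single array, rAAV-YFP 3, was high, and the other 5 lay close together. The log2 mean was 6.98 ± 0.02 in rAAV-Lmo3 and 7.35 ± 0.49 in rAAV-YFP (SD, n = 3 each), a log2 difference of -0.37 ± 0.23 (SE), or 0.77-fold, with a 95% interval of -0.92 to 0.18. Muc16 (chr9:18495445-18674821) encodes the membrane mucin that binds mesothelin. Its intensity was 46, 46 and 61 in rAAV-Lmo3, against 43, 54 and 86 in rAAV-YFP, below the limit of 114 set for testing. Here too rAAV-YFP 3 was highest, with rAAV-Lmo3 3 next. The log2 difference of Muc16 was -0.21 ± 0.26 (exact permutation p = 0.7, two-sided, where 3 arrays against 3 cannot give less than 0.1).

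Upk3b and Upk1b encode uroplakins, membrane proteins first known from the bladder surface, of which Upk3b is also a marker of mesothelium, and Lrrn4 encodes a leucine-rich repeat membrane protein that is selective for mesothelium. Upk3b (chr5:136038496-136044993) had intensities of 224, 173 and 332 in rAAV-Lmo3, against 186, 244 and 730 in rAAV-YFP. Its highest array was rAAV-YFP 3 and its next was rAAV-Lmo3 3, while the remaining 4 arrays of both groups were interleaved. The log2 mean was 7.87 ± 0.47 in rAAV-Lmo3 and 8.33 ± 1.04 in rAAV-YFP (SD, n = 3 each). The difference was -0.45 ± 0.52 (SE; 95% interval -1.68 to 0.77), an interval that spans both a fall and a rise of the gene.

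Upk1b (chr16:38773182-38800203) had intensities of 136, 113 and 171 in rAAV-Lmo3, against 120, 196 and 363 in rAAV-YFP. Both rAAV-YFP 2 and rAAV-YFP 3 were above all rAAV-Lmo3 arrays, but rAAV-YFP 1 was lower than 2 of them. The log2 difference was -0.57 ± 0.39 (95% interval -1.49 to 0.36), the most negative of the 10. Lrrn4 (chr2:132866686-132894010) had intensities of 123, 101 and 179 in rAAV-Lmo3, against 100, 133 and 309 in rAAV-YFP. Its arrays stood nearly in the order of Upk3b, and its log2 difference was -0.30 ± 0.43 (95% interval -1.31 to 0.72).

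The promoters of Upk3b and Lrrn4 are shown because these genes had the closest match of array patterns among the members (Pearson r = 0.996 over the 6 arrays, given as a description). They come from RefSeq (GRCm38.p6, chr5:136038246-136038545 on the plus strand and chr2:132880813-132881112 on the minus strand) and run from 250 bases before the annotated start to 50 after it. Capitals mark GGAATG, the core of TEAD binding sites, found on either strand.
Upk3b: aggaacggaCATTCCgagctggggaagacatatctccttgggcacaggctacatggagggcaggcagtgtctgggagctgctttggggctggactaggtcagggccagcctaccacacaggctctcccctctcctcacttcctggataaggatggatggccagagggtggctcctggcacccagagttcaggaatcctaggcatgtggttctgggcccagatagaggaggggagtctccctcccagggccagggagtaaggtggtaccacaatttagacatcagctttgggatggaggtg
Lrrn4: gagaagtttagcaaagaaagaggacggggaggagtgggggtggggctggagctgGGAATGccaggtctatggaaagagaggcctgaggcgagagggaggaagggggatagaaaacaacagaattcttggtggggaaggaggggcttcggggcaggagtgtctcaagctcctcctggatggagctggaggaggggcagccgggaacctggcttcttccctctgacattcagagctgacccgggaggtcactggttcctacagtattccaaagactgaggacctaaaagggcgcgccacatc
Upk3b held 1 match, on the minus strand 241 bases before the start, where the printed strand reads the reverse complement, and Lrrn4 held 1 match, on the plus strand 196 bases before it. GGAATG stood in 14.7% of 32851 promoters of this length, and a match is a description of the letters, not a binding site. RefSeq promoters of Muc16, Bnc1, Krt8 and Krt18 were also read and held no GGAATG, and those of Msln, Upk1b, Krt19 and Wt1 were not used here. Bnc1 held 6 GC boxes (GGGCGG), a motif of 35.7% of promoters, in a window of 83.3% GC, whereas the median window had 52.7%. The letters GCGTGGG, a motif of WT1 and EGR factors, stood in 5.04% of promoters and in none of these 6.

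**Figure D1:**
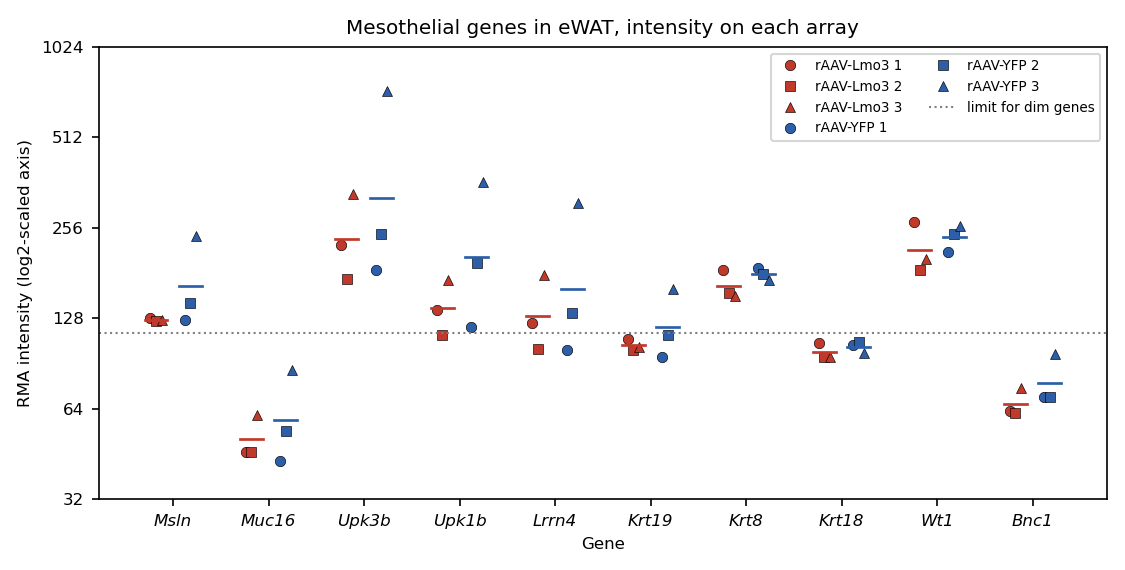
Intensity (vertical axis, log2-scaled, RMA intensity units) of the 10 mesothelial genes on each array, rAAV-Lmo3 in red to the left of rAAV-YFP in blue, with a horizontal line at each geometric mean (n = 3 per group) and a dotted line at the limit of 114 for testing. The blue triangle, rAAV-YFP 3, is the highest point of 7 of the 10 genes and reaches 730 for Upk3b.

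The keratins did not share 1 pattern. Krt19, a small acidic keratin of simple epithelia, had intensities of 109, 100 and 103 in rAAV-Lmo3, against 95, 113 and 160 in rAAV-YFP. Its pattern was that of Msln, with rAAV-YFP 3 high and the other arrays close together. The log2 difference was -0.20 ± 0.18 (exact permutation p = 0.6), below the limit for testing. Krt8 and Krt18 encode the type II and type I keratins that pair into the filaments of simple epithelia. Krt8 had intensities of 186, 155 and 152 in rAAV-Lmo3, against 188, 180 and 172 in rAAV-YFP, and was not high on rAAV-YFP 3. Its log2 difference was -0.14 ± 0.10 (95% interval -0.38 to 0.11). Krt18 had intensities of 106, 95 and 95 in rAAV-Lmo3, against 104, 107 and 98 in rAAV-YFP. It spanned 1.13-fold over the 6 arrays and was too dim to be tested, with a log2 difference of -0.06 ± 0.08 (exact permutation p = 0.3). The pair followed each other (r = 0.914 over the 6 arrays), but neither followed Upk3b (r = -0.13 for Krt8 and -0.28 for Krt18). Signal from any processed pseudogene copies of either keratin was not tested, and their values are uncertain to that extent.

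The promoters of the pair, from RefSeq (GRCm38.p6, chr15:102004293-102004592 on the minus strand for Krt8 and chr15:102027966-102028265 on the plus strand for Krt18), are shown because these neighbours on 1 chromosome had a pattern of their own. Capitals mark matches on either strand to the TATA box, spelled TATAAA here. They also mark those to the motif of GATA factors, for which the letters AGATAA were searched.
Krt8: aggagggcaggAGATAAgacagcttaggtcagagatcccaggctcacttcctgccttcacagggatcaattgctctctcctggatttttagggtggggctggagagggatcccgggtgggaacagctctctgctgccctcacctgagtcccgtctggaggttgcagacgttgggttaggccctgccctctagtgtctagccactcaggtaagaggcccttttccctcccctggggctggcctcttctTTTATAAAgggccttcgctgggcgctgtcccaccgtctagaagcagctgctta
Krt18: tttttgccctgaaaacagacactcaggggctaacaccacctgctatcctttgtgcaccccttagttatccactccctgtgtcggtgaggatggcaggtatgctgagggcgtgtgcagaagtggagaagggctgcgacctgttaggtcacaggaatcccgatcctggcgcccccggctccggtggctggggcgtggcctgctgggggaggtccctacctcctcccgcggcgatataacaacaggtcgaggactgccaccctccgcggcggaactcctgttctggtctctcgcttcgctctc
Krt8 held a TATA box read on both strands, as 2 overlapping matches next to the annotated start, and 1 GATA motif 239 bases before it. Krt18 held neither. The TATA box letters stood in 13.6% of the 32851 promoters and the GATA letters in 11.2%.

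Wt1 and Bnc1 encode zinc finger transcription factors. WT1 is a classical marker of mesothelium and is also found in progenitors of visceral fat. Wt1 (chr2:105126529-105173614) had intensities of 267, 186 and 202 in rAAV-Lmo3, against 212, 244 and 260 in rAAV-YFP. It was the only member with its highest value on rAAV-Lmo3 1, and the range of its rAAV-Lmo3 arrays enclosed all rAAV-YFP values. The log2 difference was -0.14 ± 0.15 (95% interval -0.51 to 0.23). Bnc1, which encodes basonuclin, had intensities of 63, 62 and 75 in rAAV-Lmo3, against 70, 70 and 97 in rAAV-YFP, too dim to be tested. Its order resembled that of Upk3b on a smaller scale, with rAAV-YFP 3 first and rAAV-Lmo3 3 second, and its log2 difference was -0.23 ± 0.15 (exact permutation p = 0.3).

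The array rAAV-YFP 3, singled out after the values were seen, stood out for most of the members. It was the highest for 7 of the 10 members (Upk3b, Upk1b, Lrrn4, Msln, Muc16, Krt19 and Bnc1), where it was the highest for 12.9% of all 19938 genes, dim ones included, and for 15.9% of the genes tested. Of the 7, Muc16, Krt19 and Bnc1 were too dim to be tested. It exceeded the geometric mean of the other 5 arrays 3.24-fold for Upk3b, 2.52-fold for Upk1b, 2.49-fold for Lrrn4, 1.86-fold for Msln, 1.73-fold for Muc16, 1.54-fold for Krt19 and 1.43-fold for Bnc1. The same ratio was 1.18 for Wt1, 1.00 for Krt8 and 0.97 for Krt18, so these 3 genes showed little or none of it. For 5 of the 10 members rAAV-YFP 3 exceeded the next array by 0.5 or more on the log2 scale, a distance chosen after the values were seen, as it did for 48 of all 19938 genes (0.241%) and 31 of the 11963 tested (0.259%). Of these 5, Krt19 was too dim to be tested. The members high on rAAV-YFP 3 also rose and fell together, so these counts are a description and not separate observations. The sum of the 10 intensities was 1388, 1156 and 1496 in rAAV-Lmo3, against 1244, 1485 and 2516 in rAAV-YFP.

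Without rAAV-YFP 3, 6 of the 10 members were below 0 and the median log2 difference was -0.08. Upk3b then differed by 0.14, Lrrn4 by 0.18 and Muc16 by 0.07, each in the opposite direction to the value over all arrays, and Krt19 by 0.0045. Upk1b kept its sign with -0.15, Msln with -0.09, Wt1 and Bnc1 with -0.08 each, Krt8 with -0.17 and Krt18 with -0.10. The direction of 4 members thus rests on 1 pool of 2 mice. Within the rAAV-Lmo3 group a similar but smaller spread was seen, since rAAV-Lmo3 3 exceeded the mean of rAAV-Lmo3 1 and 2 by 1.69-fold for Upk3b, 1.61-fold for Lrrn4, 1.38-fold for Upk1b and 1.33-fold for Muc16. Msln did not share it, with a ratio of 1.00.

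**Figure D2:**
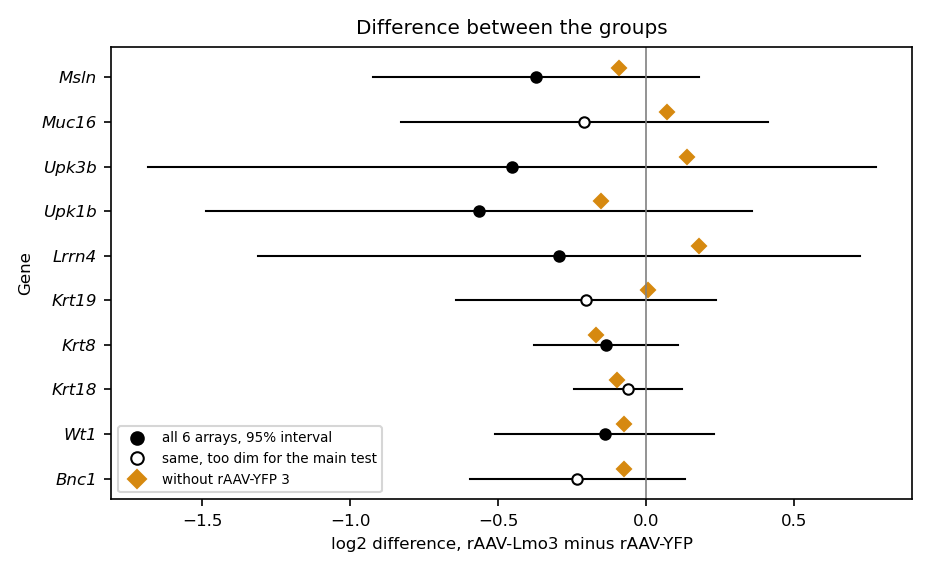
Log2 difference, rAAV-Lmo3 minus rAAV-YFP (horizontal axis), of the 10 mesothelial genes over all 6 arrays (black circles with 95% intervals, open where the gene was too dim to be tested) and without rAAV-YFP 3 (orange diamonds). All 10 circles lie below 0 with intervals that cross it, and the diamonds of Upk3b, Lrrn4, Muc16 and Krt19 lie at or above 0.

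The genes that followed the members most closely, by Pearson r of their log2 values with the mean of the centred member values over 6 arrays, were LTO1 (0.990), Pcdhb4 (0.989), Rspo1 (0.988), Pik3ip1 (0.986) and Prr32 (0.981). These values are a description of 6 points in which rAAV-YFP 3 weighs heavily. Without that array the same genes had r of 0.961, 0.949, 0.945, 0.941 and 0.994 over 5 arrays. These arrays were among those used to choose the genes, so a high r there follows in part from the choice. Of the 5, Rspo1 spanned 2.23-fold between its lowest and highest array and the other 4 between 1.14-fold and 1.38-fold. R-spondin 1, a secreted amplifier of Wnt signalling made by mesothelium, had intensities of 263, 239 and 336 in rAAV-Lmo3, against 248, 318 and 533 in rAAV-YFP, in the array order of Upk3b.

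Rspo1 also belongs to a wider list of 21 genes that are used as mesothelial markers or are made by mesothelium. Of these, 17 were tested, 0 passed the adjusted test, 0 were higher and 2 were lower at an unadjusted p under 0.05, where 2.27% and 2.4% of all genes tested were. The differences of 15 of the 21 were below 0 and the median was -0.11, and without rAAV-YFP 3 these were 11 of 21 and -0.01. The array rAAV-YFP 3 was highest for 9 of the 21. Gpm6a, a membrane glycoprotein, had intensities of 93, 85 and 177 in rAAV-Lmo3, against 100, 118 and 329 in rAAV-YFP. Pkhd1l1, a large membrane protein related to fibrocystin, had 86, 66 and 130 in rAAV-Lmo3, against 73, 89 and 257 in rAAV-YFP. Gpm6a and Pkhd1l1 were named after their values were seen, since both repeat the array order seen for Upk3b or nearly so.

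The list was not uniform. The 2 lower genes were Efemp1, a matrix fibulin that fibroblasts make too, and Ezr, which encodes the microvillus linker ezrin. They were the 2 of 17 tested genes with every rAAV-Lmo3 array below every rAAV-YFP array, as were 5.95% of all genes tested. With dim genes included this held for 3 of the 21, the other being Cxadr, which was too dim to be tested (log2 difference -0.27 ± 0.09). Efemp1 had intensities of 1714, 1424 and 1533 in rAAV-Lmo3, against 1865, 2168 and 1991 in rAAV-YFP, and its groups did not overlap (log2 difference -0.37 ± 0.10, adjusted p = 0.970 in limma). Ezr had 378, 424 and 435 in rAAV-Lmo3, against 585, 438 and 611 in rAAV-YFP, likewise without overlap (-0.39 ± 0.14, adjusted p = 0.970 in limma). Neither of these was marked by rAAV-YFP 3 alone. Anxa8, an annexin, went the other way in its means, with intensities of 159, 294 and 243 in rAAV-Lmo3, against 150, 96 and 192 in rAAV-YFP (0.68 ± 0.31), and its groups overlapped. Cldn15, a claudin, differed by -0.28 ± 0.17, and Thbd, the thrombomodulin of mesothelium and endothelium, by -0.59 ± 0.38 with overlapping groups. Calb2, which encodes the classic marker calretinin, was dim at 43, 41 and 39 in rAAV-Lmo3, against 36, 43 and 41 in rAAV-YFP.

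**Figure D3:**
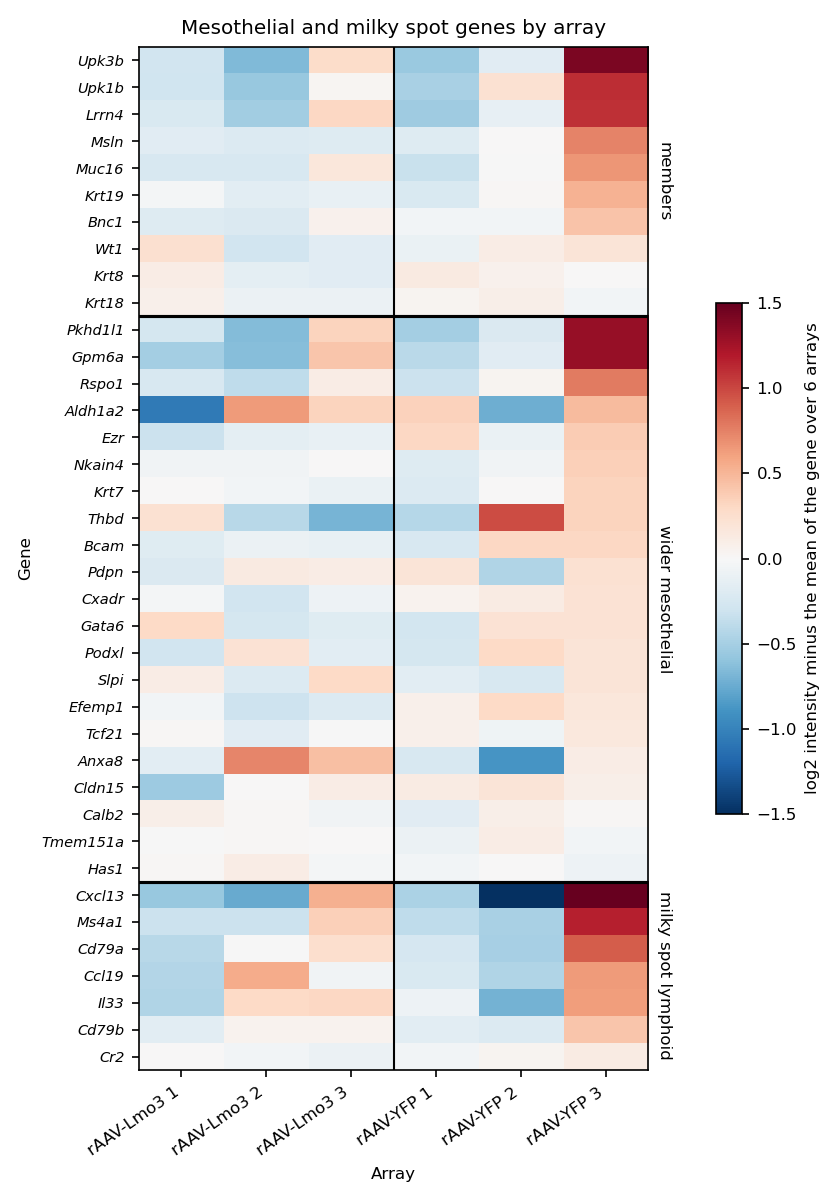
Log2 intensity of each gene minus its mean over the 6 arrays (colour, limited at 1.5 in either direction) for the 10 members, the wider mesothelial list and the milky spot list, with genes down the page and the rAAV-Lmo3 arrays left of the rAAV-YFP arrays. The last column, rAAV-YFP 3, is darkest red for Upk3b among the members and for Cxcl13, which lies beyond the colour limit, and near white for Krt8 and Krt18.

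Other genes of the uroplakin and keratin families were set beside the members. The 4 other uroplakin genes, Upk1a, Upk2, Upk3a and Upk3bl, had a median difference of -0.02 and differences between -0.10 and 0.06, and 0 of the 4 were highest on rAAV-YFP 3. Of 49 other keratin genes 34 were below 0 and 15 above, with a median of -0.05, and 8 were tested. Krt79, a keratin of hair follicles and sebaceous ducts, was the 1 of the 8 that was higher at an unadjusted p under 0.05, where 2.27% of all genes tested were, with intensities of 407, 507 and 544 in rAAV-Lmo3, against 286, 277 and 297 in rAAV-YFP (0.75 ± 0.12, adjusted p = 0.885 in limma). It did not follow the members' pattern, as its 3 rAAV-YFP arrays were close together. Krt87 differed by -0.15 ± 0.10, Krt80 by -0.14 ± 0.15 and Krt33b by -0.08 ± 0.08.

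Genes of junctions and of the change from mesothelial to mesenchymal cells were examined beside the markers. Of 14 junction and polarity genes 11 were below 0, with a median of -0.10. Of the 9 tested, 0 were higher and 2 were lower at an unadjusted p under 0.05, where 2.27% and 2.4% of all genes tested were. These were Jup, the junctional plakoglobin, by -0.57 ± 0.19 and the tight junction scaffold Tjp1 by -0.35 ± 0.12 (adjusted p = 0.970 in limma for both). Tjp1 was the 1 of the 9 with every rAAV-Lmo3 array below every rAAV-YFP array, beside 5.95% of all genes tested. The polarity gene Pard6b differed by -0.11 ± 0.09 and Msn, which encodes the membrane linker moesin, by -0.18 ± 0.15. Jup and Tjp1 are also made by endothelium, and P-cadherin, the product of Cdh3, was too dim to be tested yet had 144 on rAAV-YFP 3 where no other array exceeded 94. Of 16 genes tied to mesenchymal transition 15 were below 0, with a median of -0.11. Of the 15 tested, 0 were higher and 1 was lower at an unadjusted p under 0.05, beside 2.27% and 2.4% of all genes tested. This was Ccn2, a matrix-associated growth factor, with intensities of 319, 371 and 400 in rAAV-Lmo3, against 555, 564 and 631 in rAAV-YFP (-0.69 ± 0.11, adjusted p = 0.885 in limma). The transcription factor Twist1 differed by 0.19 ± 0.10, smooth muscle actin Acta2 by -0.23 ± 0.16, fibronectin Fn1 by -0.20 ± 0.32 and vimentin Vim by -0.10 ± 0.12, all with overlapping groups. Retinoid genes, of which mesothelium makes several, had 11 tested and 0 higher or lower at an unadjusted p under 0.05, beside 2.27% and 2.4% of all genes tested. Among them Aldh1a1, a retinaldehyde dehydrogenase, was highest on rAAV-YFP 3 (1884) and differed by -0.39 ± 0.18. It was the 1 of the 11 with every rAAV-Lmo3 array below every rAAV-YFP array, beside 5.95% of all genes tested. The retinoic acid receptors Rarb and Rarg differed by 0.16 ± 0.10 and -0.17 ± 0.11, and the retinal reductase Dhrs3 by -0.09 ± 0.15.

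Markers of other cells that could be sampled with the depot were set beside the members. The 9 epididymal epithelium genes were all too dim to be tested, with a summed intensity of 469 to 517 in rAAV-Lmo3 and 505 to 567 in rAAV-YFP. Of the 9, 0 were highest on rAAV-YFP 3 alone, although some tied for highest there with another array. The brightest were Ces5a at 107 to 122 in rAAV-Lmo3 and 108 to 117 in rAAV-YFP, and Cst11 at 88 to 96 in rAAV-Lmo3 and 81 to 98 in rAAV-YFP. Of 9 markers of other epithelia 7 were too dim, among them Epcam at 44, 43 and 40 in rAAV-Lmo3, against 42, 46 and 38 in rAAV-YFP, and the tested claudins Cldn3 and Cldn4 differed by 0.12 ± 0.09 and -0.03 ± 0.07. Sperm transcripts were present in both groups and in another order of arrays than the members. Prm1, a protamine, had 564, 142 and 524 in rAAV-Lmo3, against 439, 248 and 360 in rAAV-YFP. Another protamine, Prm2, differed by 0.24 ± 0.64 and the transition protein Tnp2 by 0.13 ± 0.32. The testis list was lowest on rAAV-Lmo3 2 and rAAV-YFP 2, and 0 of its 7 genes were highest on rAAV-YFP 3.

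A lower median in rAAV-Lmo3 was not peculiar to the members. Of 7 endothelial genes 6 were below 0 with a median log2 difference of -0.23, next to -0.22 for the members, and the endothelial median was -0.23 without rAAV-YFP 3 as well. The junctional cadherin Cdh5 differed by -0.33 ± 0.14, the receptor Tie1 by -0.28 ± 0.14 and the adhesion molecule Pecam1 by -0.23 ± 0.11, all with overlapping groups. Of 9 adipocyte genes 8 were below 0 with a median of -0.05, including leptin (Lep) at -0.28 ± 0.12 and the lipases Lipe at -0.21 ± 0.13 and Pnpla2 at -0.07 ± 0.10. The brightest of them, Cidec and Retn, differed by 0.04 ± 0.09 and -0.02 ± 0.26. Lep was the 1 of the 9 with every rAAV-Lmo3 array below every rAAV-YFP array, beside 5.95% of all genes tested. Of 6 smooth muscle and pericyte genes 4 were below 0 with a median of -0.06, with the pericyte gene Rgs5 at -0.37 ± 0.19 and Cspg4 at 0.25 ± 0.26.

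Of 9 progenitor and fibroblast genes 6 were below 0 with a median of -0.05, although lumican (Lum) differed by 0.54 ± 0.29, Pdgfra by 0.17 ± 0.16, Pdgfrb by -0.26 ± 0.34, Col3a1 by 0.22 ± 0.30 and decorin (Dcn) by -0.03 ± 0.11. Macrophage genes ran the other way, with 9 of 10 above 0 and a median of 0.08. Cd163, a scavenger receptor, was the 1 below 0 at -0.22 ± 0.12, while Trem2 differed by 0.39 ± 0.47, Adgre1 by 0.37 ± 0.48, Cd68 by 0.06 ± 0.38 and Lyz2 by 0.02 ± 0.16. In these 5 lists 0 genes were higher or lower at an unadjusted p under 0.05, where 2.27% and 2.4% of all genes tested were. The endothelial list had 0 of 7 genes highest on rAAV-YFP 3, beside 15.9% of all genes tested. That array was second highest for Cdh5, Tie1, Pecam1, Tek, Erg and Kdr and lowest for Emcn. The mean of the list's centred values was 0.08 on rAAV-YFP 3 and 0.28 on rAAV-YFP 2. The part of endothelial or other cells in the members' levels was not tested.

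Among the cell type lists, that of milky spot lymphoid clusters moved most with the members on rAAV-YFP 3. For it 7 of 7 genes were highest on that array, beside 12.9% of all 19938 genes. For 3 of the 7 it exceeded the next array by 0.5 or more on the log2 scale, beside 0.241% of all 19938 genes. Of the 7, 3 were too dim to be tested, among them Ms4a1 and Cd79a. The milky spot list was not alone in this. Also highest on rAAV-YFP 3 were 3 of 9 progenitor and fibroblast genes, 2 of 6 smooth muscle and pericyte genes and 5 of 16 mesenchymal transition genes. In these 3 lists 0 genes exceeded the next array by 0.5 or more. The counts were 1 of 9 for adipocyte and 0 of 10 for macrophage genes. Cxcl13, the chemokine that draws B cells into milky spots, had intensities of 158, 139 and 339 in rAAV-Lmo3, against 169, 68 and 1943 in rAAV-YFP. On rAAV-YFP 3 it was 12.6-fold above the mean of the other 5 arrays, and rAAV-Lmo3 3 was second, as for Upk3b. Ms4a1, the gene of the B cell antigen CD20, had 28, 28 and 45 in rAAV-Lmo3, against 27, 25 and 79 in rAAV-YFP. The B cell receptor component Cd79a had 34, 45 and 54 in rAAV-Lmo3, against 38, 32 and 85 in rAAV-YFP. The summed intensity of the 7 genes was 828 to 1252 in rAAV-Lmo3 and 704 to 3260 in rAAV-YFP, and the list's median log2 difference was -0.09, against 0.34 without rAAV-YFP 3. Ccl19, a chemokine of T cell zones, differed by 0.03 ± 0.35, the alarmin Il33 by 0.11 ± 0.36 and Cd79b by -0.04 ± 0.18. For these genes rAAV-YFP 3 exceeded the next array only 1.06-fold, 1.25-fold and 1.28-fold. Cxcl13 differed by -0.53 ± 1.16 over all arrays and by 0.87 without rAAV-YFP 3. The part of milky spots in the members' levels was not tested.

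**Figure D4:**
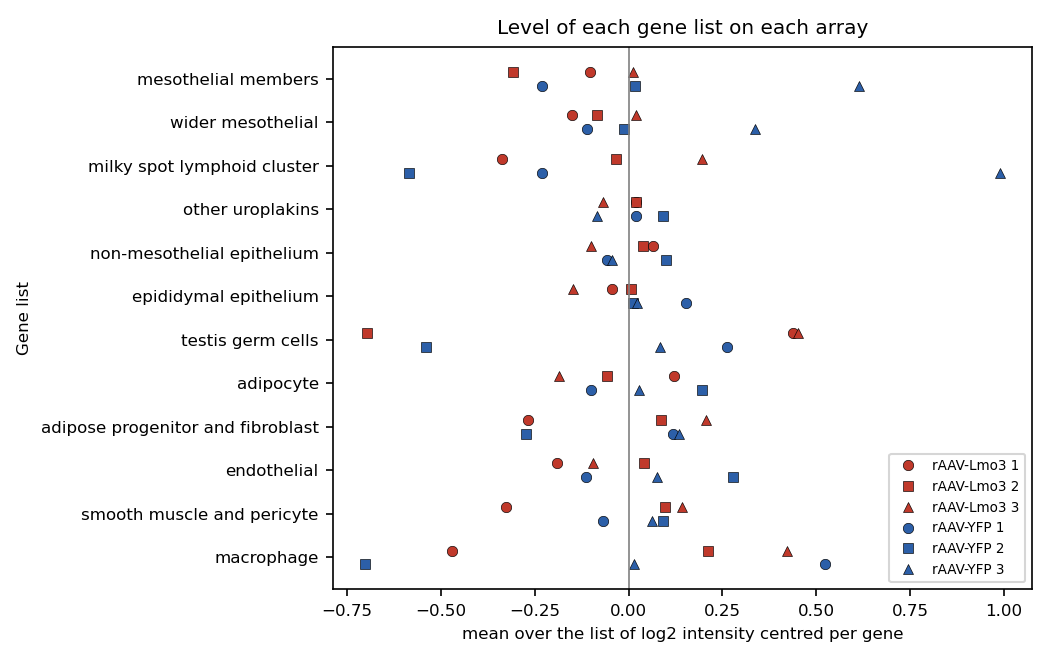
Mean over each gene list of the log2 intensity centred per gene (horizontal axis), for each array, rAAV-Lmo3 in red above rAAV-YFP in blue (n = 3 arrays each, no error bars). The point of rAAV-YFP 3 lies far to the right at 0.61 for the members and at 0.99 for the milky spot list, while the macrophage list is spread widely in both groups.

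The arrays were of like brightness, with median intensities of 123 to 126 in rAAV-Lmo3 and 125 to 127.5 in rAAV-YFP. Adipocyte markers were bright on all of them, as the tissue label says, with Adipoq, the gene of adiponectin, at 10809, 8041 and 8014 in rAAV-Lmo3, against 8606, 10223 and 8364 in rAAV-YFP. The arrays rAAV-Lmo3 1 and rAAV-YFP 2 correlated least with the others (mean r of 0.986 and 0.988, where the remaining 4 had 0.990 to 0.991) and had the lowest macrophage list levels (-0.47 and -0.70), whereas rAAV-YFP 3, which set the members' pattern, did not stand apart over all genes.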

How the data were processed

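RNA of eWAT was measured on 6 mouse Gene 1.0 ST arrays of Affymetrix. The deposited intensity values were made by the authors with RMA (background correction, quantile normalization, median polish) in Affymetrix Expression Console 1.1, per the submitters' processing notes. They are linear and rounded to whole numbers, although a log2 scale had been planned for, so each value was first converted to log2. Rounding is coarse for dim genes, since 24 and 25 are 4.58 and 4.64 on the log2 scale. Groups came from the sample titles, which name rAAV-YFP, although the treatment text names rAAV-LacZ. No batch is given.

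Of 35556 probe sets 21789 carried 1 symbol, 1621 several and 12146 none, and 21698 symbols were matched in RefSeq (GRCm38.p6), which gave coordinates and promoters. Per gene the brightest probe set was kept, and the dimmest 40% of 19938 genes (mean log2 intensity below 6.83) were left out of the test. The rest were fitted with limma 3.58.1 in R 4.3.3 (two-sided, default prior, threshold 0.05), after tests on simulated data. Values of dim genes come from a fit without that filter, with an exact permutation test. Since the replicates are separate pools of mice, the spread behind a p-value is that from pool to pool, and the number of arrays limits precision.

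The members and lists were chosen with earlier results of these data known. Named are all members, Lmo3, the genes of each other list with the smallest p (3 of each, 4 of the wider list) or the 2 brightest, and the 5 genes most like the members. Genes named for their level on rAAV-YFP 3 or as a defining marker (Gpm6a, Pkhd1l1, Calb2, Cdh3, Ms4a1, Cd79a, Epcam, Adipoq) were added after their values were seen. So was Cxadr, named for groups without overlap. The alternatives were other filters, 2 other scalings, other variance models, the methods' t-test, a replicate block, the mean over probe sets and leaving out each array. Leaving out both arrays that stood apart was added later.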

Additional observations from a re-analysis of the deposited data

How the results depend on the processing

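Under all 16 alternatives 0 genes were called at an adjusted p under 0.05, and limma gave 558 genes at an unadjusted p under 0.05, where the methods' t-test gave 555. Of 160 member values under alternatives 156 kept their direction and 0 reached an adjusted p under 0.05. The 4 that turned did so without rAAV-YFP 3. Many of the 160 repeat the main value, because the other filters, the prior with trend, the t-test and the replicate block cannot change a difference. Nor can the mean over probe sets, as each member has 1 probe set. The 4 dim members had an adjusted p only with no filter. When 1 array was left out, the log2 difference ranged from -0.85 to 0.14 for Upk3b, from -0.64 to 0.18 for Lrrn4, from -0.43 to 0.069 for Muc16 and from -0.37 to 0.0045 for Krt19. Outside the members it ranged from -0.82 to 0.042 for Gpm6a, from -0.74 to 0.16 for Pkhd1l1 and from -1.55 to 0.87 for Cxcl13, and the highest values were those without rAAV-YFP 3. The members' median ranged from -0.40 without rAAV-YFP 1 to -0.08 without rAAV-YFP 3, and the number below 0 from 6 to 10. The counts at an unadjusted p under 0.05 (271 higher and 287 lower) were 143 and 140 without rAAV-Lmo3 3, and 122 and 141 without rAAV-YFP 2, 167 were higher without rAAV-YFP 1, and 458 were lower with no filter on dim genes. Others rose with as few arrays, to 404 higher without rAAV-YFP 3, 336 higher without rAAV-Lmo3 2 and 339 lower without rAAV-YFP 1. The cause was not tested.

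Over all genes tested, the deviations of same-numbered arrays from their group means correlated at -0.55, -0.40 and 0.26. With 3 arrays a group, these values cannot tell whether replicate numbers pair the arrays. With a replicate block 0 genes were called, and 216 were higher and 237 lower at an unadjusted p under 0.05. In this balanced design a block cannot change a difference, so the members' median stayed at -0.22 and only the SE moved. The SE fell from 0.52 to 0.29 for Upk3b and from 0.15 to 0.08 for Bnc1. Among the members only that of Wt1 rose, from 0.15 to 0.18. The 6 pools and rounded intensities limit what can be seen for the 4 dim members.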

Other observations

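Among the 31 genes tested that were higher on rAAV-YFP 3 than on the next array by 0.5 or more on the log2 scale stand members of the lists above and genes of other kinds, of which 4 are given as examples. These were chosen after their values were seen, and no test was made. Cpxm2, a carboxypeptidase-like protein, had intensities of 178, 240 and 229 in rAAV-Lmo3, against 175, 183 and 637 in rAAV-YFP. Sfrp2, a secreted Wnt modulator, had 519, 659 and 810 in rAAV-Lmo3, against 564, 423 and 1583 in rAAV-YFP. Fmod, the collagen-binding fibromodulin, had 240, 307 and 476 in rAAV-Lmo3, against 288, 274 and 840 in rAAV-YFP, with rAAV-Lmo3 3 second as for Upk3b. Bank1, a B cell adaptor, had 118, 125 and 124 in rAAV-Lmo3, against 109, 127 and 211 in rAAV-YFP. For Sfrp2 and Fmod, rAAV-Lmo3 3 also stood above the remaining 4 arrays.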
